A study of Mus musculus with 2 samples.

Results

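The 9 genes described here encode transcription factors used to tell apart the subtypes of cortical inhibitory interneurons. They were chosen by symbol in the GENCODE M21 annotation of the mouse genome and are 9 of 21911 protein-coding genes. No measured value entered the rule, but earlier results of these data were known when the choice was made. Lhx6, Nkx2-1, Sox6, Maf and Satb1 form the group of 5 factors of the medial ganglionic eminence. Nr2f2, Prox1, Sp8 and Npas1 form the group of 4 factors of the caudal ganglionic eminence. Open chromatin was mapped with DNase-seq: nuclei are treated with the enzyme DNase I, which cuts accessible DNA, and the ends of the fragments are sequenced. The 2 libraries came from frontal cortex tissue of female B6CASTF1/J mice at 10 days of age, a first-generation cross of a B6 and a CAST parent, and no group was treated or mutated. The labels call them biological replicates 1 and 2 and give them 1 donor record. They do not say whether separate animals were used, and the meaning of their mark "3x" is not given. With 1 group of 2 libraries no conditions could be compared, so all values are descriptions and no test was made.

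Cortical interneurons use the inhibitory transmitter GABA and are born outside the cortex, in transient swellings of the ventral forebrain called ganglionic eminences, from which they migrate into the cortex. The medial eminence gives most interneurons that make parvalbumin or somatostatin, whereas the caudal eminence gives many of those that make vasoactive intestinal peptide or reelin. Factors such as Nkx2-1 specify the progenitors, and others such as Lhx6 and Prox1 act in the young neurons and guide their migration and maturation. Interneurons are a minority of cortical cells, and several of the 9 genes are also used by other cells, such as Sox6 in oligodendrocyte precursors and Nr2f2 in venous endothelium. The tissue was measured in bulk, so fewer cells of a type and less open chromatin per cell cannot be told apart.

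Each library came with a list of peaks, which are stretches of DNA with a high density of cuts, and with a list of footprints, which are short protected stretches inside open DNA. Replicate 1 had 104654 peaks and 293484 footprints, and replicate 2 had 81654 peaks and 187137 footprints. The signal of a peak is the authors' value. Its median was 0.604 in replicate 1 and 0.880 in replicate 2, its scaling is not stated, and the number of reads behind it is unknown, so levels are read within a library or as percentiles of its peaks. The tissue label was compared with marker genes: 4 of 4 core genes of GABA neurons and 10 of 12 genes of excitatory neurons had an open promoter in both libraries, against 2 of 8 genes of other brain regions and 62.8% of all protein-coding genes. The counts for glial and vascular cells, which the cortex also holds, were 6 of 8 for astrocytes, 3 of 8 for the oligodendrocyte lineage, 4 of 8 for endothelial and mural cells and 2 of 8 for microglia. The lists for the last 3 were thus not clearly set apart from the list of other regions.

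Open sites were sought in each gene and 20 kb on both sides. Overlapping peaks of the libraries were joined into 1 site, which gave 85 sites, 54 at medial and 31 at caudal factor genes. A promoter was called open where a peak came within 500 bp of 1 or more of the gene's annotated starts. A peak was called distal where its centre lay over 1000 bp from every annotated start site of any gene. The sequences below are those on which the results turn: for 4 genes without a promoter open in both libraries, the strongest distal site present in both, then for Maf its strongest distal and promoter sites, and for Sp8 its strongest promoter site. They are read 5′ to 3′ along the strand of the gene from GRCm38 (mm10), the minus strand for all but Sp8, and capitals mark bases under a footprint in both libraries.
Lhx6, chr2:36091421-36091680, intron reaching into a coding exon: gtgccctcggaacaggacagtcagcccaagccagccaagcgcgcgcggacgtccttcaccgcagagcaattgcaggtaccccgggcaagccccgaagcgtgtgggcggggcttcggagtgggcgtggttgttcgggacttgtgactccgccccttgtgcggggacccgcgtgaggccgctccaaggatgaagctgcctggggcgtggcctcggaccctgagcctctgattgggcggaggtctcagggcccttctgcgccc
Nkx2-1, chr12:56541181-56541340, upstream: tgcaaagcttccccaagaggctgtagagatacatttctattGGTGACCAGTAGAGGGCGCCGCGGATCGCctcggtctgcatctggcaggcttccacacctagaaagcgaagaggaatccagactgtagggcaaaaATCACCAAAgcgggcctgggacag
Nr2f2, chr7:70335021-70335200, downstream: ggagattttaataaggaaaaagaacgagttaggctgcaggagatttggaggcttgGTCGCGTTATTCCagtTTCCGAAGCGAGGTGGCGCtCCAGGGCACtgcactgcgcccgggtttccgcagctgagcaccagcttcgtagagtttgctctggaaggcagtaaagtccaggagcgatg
Npas1, chr7:16463321-16463500, coding exon and intron: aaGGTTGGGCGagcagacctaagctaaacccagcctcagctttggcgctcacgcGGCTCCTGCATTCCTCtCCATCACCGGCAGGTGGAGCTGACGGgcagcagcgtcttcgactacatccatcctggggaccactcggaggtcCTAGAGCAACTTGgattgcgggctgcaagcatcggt
Maf, chr8:115709501-115709720, upstream: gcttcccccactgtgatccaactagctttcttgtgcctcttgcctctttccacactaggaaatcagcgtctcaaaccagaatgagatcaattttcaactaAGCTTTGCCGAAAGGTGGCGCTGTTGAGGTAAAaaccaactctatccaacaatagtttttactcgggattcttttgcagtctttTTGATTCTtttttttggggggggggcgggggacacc
Maf, chr8:115707801-115708100, promoter: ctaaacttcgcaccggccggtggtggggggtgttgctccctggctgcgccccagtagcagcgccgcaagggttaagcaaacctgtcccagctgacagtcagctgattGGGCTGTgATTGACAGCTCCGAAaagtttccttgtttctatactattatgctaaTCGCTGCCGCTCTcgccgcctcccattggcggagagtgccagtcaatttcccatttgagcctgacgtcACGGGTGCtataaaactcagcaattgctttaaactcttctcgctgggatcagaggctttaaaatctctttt
Sp8, chr12:118846961-118847260, promoter: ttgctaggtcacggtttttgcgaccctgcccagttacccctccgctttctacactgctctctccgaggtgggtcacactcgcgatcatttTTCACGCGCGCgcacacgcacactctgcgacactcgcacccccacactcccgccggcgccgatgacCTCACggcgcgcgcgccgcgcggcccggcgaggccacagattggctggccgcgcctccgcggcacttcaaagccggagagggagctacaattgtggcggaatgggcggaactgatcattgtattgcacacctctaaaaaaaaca
Footprints in both libraries covered 38 of 160 bases of the Nkx2-1 site, 41 of 180 of the Nr2f2 site and 64 of 180 of the Npas1 site. They covered 41 of 220 bases of the distal Maf site, 43 of 300 of the Maf promoter site and 16 of 300 of the Sp8 promoter site. No base of the Lhx6 site lay under a footprint in both, although 30 of its 260 bases were covered in replicate 1 and 10 in replicate 2.

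Promoters of the factor genes fell into an open and a closed class that cut across the eminence of origin. Sox6, Maf and Satb1 among the medial factors, and Prox1 and Sp8 among the caudal factors, were open in both libraries. Lhx6, Nr2f2 and Npas1 had no promoter peak in either library, and Nkx2-1 had a weak one in replicate 1 alone. Counted together, 6 of 9 promoters were open in replicate 1, where 66.1% of all protein-coding genes were, and 5 of 9 in replicate 2, against 63.3%. Both libraries showed an open promoter for 5 of the 9 genes, against 62.8% of all genes, so the share was near the background. With start sites widened to 2000 bp the count was 6, with Nr2f2 added, and with the annotated gene start alone it was 4, with Sox6 lost.

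**Figure D1:**
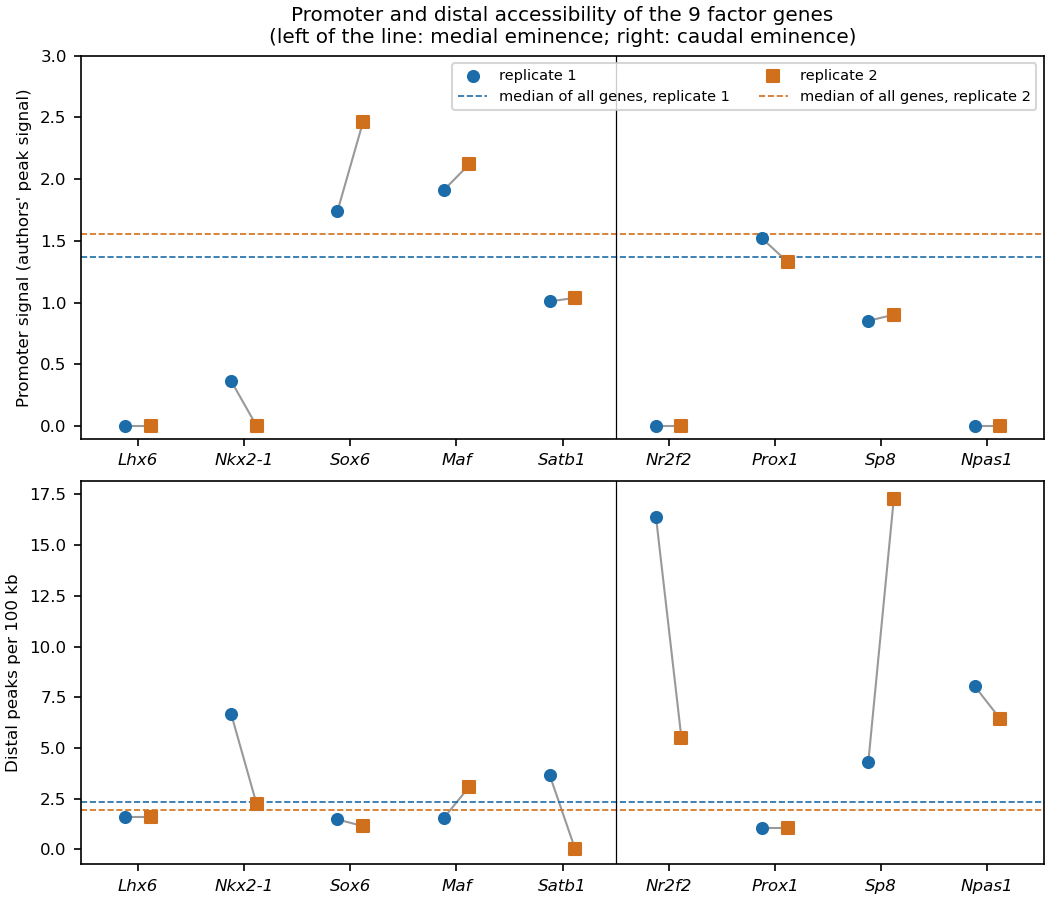
Promoter signal (upper panel, the authors' peak signal, 0 for no peak) and distal peaks per 100 kb of gene and flanks (lower panel) for each gene in replicate 1 (circles) and replicate 2 (squares), with dashed lines at the medians of all protein-coding genes. Lhx6, Nr2f2 and Npas1 sit at 0 in both libraries in the upper panel, while Nkx2-1, Nr2f2, Sp8 and Npas1 lie above the dashed line of each library in the lower one.

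Nkx2-1, the homeodomain factor that specifies progenitors of the medial eminence and is shut off in interneurons bound for the cortex, had a promoter signal of 0.365 in replicate 1 and no peak in replicate 2. That peak lay at the 23.1 percentile of the signals of its library and was 402 bp inside the gene, where the noncoding gene Gm26973 also starts. Lhx6, a LIM homeodomain factor that acts downstream of Nkx2-1 in young interneurons, had no promoter peak at any of its 7 annotated start sites. Sox6, an SRY-box factor needed for the placing and maturation of medial interneurons, had a promoter signal of 1.74 in replicate 1 and 2.46 in replicate 2. This site, chr7:116033021-116033220, lay 5.68 kb inside the gene at an alternative start. The annotated outermost start of Sox6 was closed in both libraries.

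Maf, a basic leucine zipper factor of medial interneurons, had 1.91 at its promoter in replicate 1 and 2.12 in replicate 2. Satb1, a chromatin organiser that matures somatostatin interneurons and is also made by other cortical neurons, had 1.01 and 1.04. Its strongest site, chr17:51812361-51813820, was an internal start 19.9 kb into the gene, and the site at the outermost start had 0.750 and 0.981. The open medial promoters were thus present in both libraries, and those of Sox6 and Satb1 were strongest at starts inside the gene.

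Among the caudal factors, Prox1, a homeodomain factor that supports the migration and circuit integration of caudal interneurons, had a promoter signal of 1.52 and 1.33. Its open site, chr1:190170461-190170840, also holds the start of the antisense gene Prox1os, and DNase cuts cannot be given to 1 of them. Sp8, a zinc finger factor of the caudal and lateral eminences, had a promoter signal of 0.854 and 0.902, below the median of all genes (1.37 and 1.56). Nr2f2, the nuclear receptor COUP-TFII, had no peak within 500 bp of its 6 starts, and Npas1, a basic helix-loop-helix PAS factor, had none at its 3 starts.

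The tables of local cut rate, which list every base below a false discovery rate of 0.05, gave the same split. They rest on the same cuts as the peaks and nearly repeat them, so they are no independent check. In the whole Lhx6 window, 276 bases were listed in replicate 1, where its only site is 260 bp wide. Lhx6, Nr2f2 and Npas1 had 0 such bases within 500 bp of their starts in both libraries. Nkx2-1 had 194 such bases in replicate 1 and 0 in replicate 2. Sox6 had 2615 and 2596, Maf had 1699 in each, Satb1 had 3431 and 2293, Prox1 had 389 and 428, and Sp8 had 324 and 362. These counts rise with the number and width of open starts and are not levels. At the 3 genes without a promoter peak, then, no single base near a start passed this limit either.

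Richness in CpG dinucleotides, a feature of most promoters that are open in many tissues, did not separate the open from the closed promoters in the same way. The ratio of observed to expected CpG around the gene start was 0.258 at Nr2f2 and 0.230 at Npas1, below the median of 0.552 over all genes. At Lhx6 it was 0.654 and at Nkx2-1 0.668, within the range of the 4 genes whose gene start was open in both libraries, Maf (0.771), Satb1 (0.686), Prox1 (0.794) and Sp8 (0.587). At Sox6, whose gene start was closed and whose open site lay further inside, it was 0.518. Of the 10067 protein-coding genes with a ratio of at least 0.6, 94.9% had a promoter open in both libraries and 3.30% had none in either, against 33.4% with none among all genes. Lhx6 belongs to that 3.30%, but its ratio lay below the median of 0.782 of this set. The limit of 0.6 was chosen after the values were seen. The share at ratios near that of Lhx6 was not taken.

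The medial and caudal groups overlapped in promoter signal. In replicate 1 the medial median was 1.01 (range 0 to 1.91) and the caudal median 0.427 (0 to 1.52). In replicate 2 these were 1.04 (0 to 2.46) and 0.451 (0 to 1.33). The order of the medians depended on which start sites were counted: the medial minus caudal difference, 0.585 as a mean of the libraries, became -0.128 with windows of 2000 bp and -0.0961 with the annotated gene start alone. With windows of 2000 bp it was below 0 in both libraries (-0.177 and -0.0789), and with the gene start alone only in replicate 2 (0.0729 and -0.265). No difference between the groups in promoter signal can be read from these values.

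Away from promoters, 8 of the 9 genes had at least 1 distal peak shared by the libraries, against 63.1% of all protein-coding genes, and only Satb1 had none. This count rises with window length, for which the share of all genes was not matched. Per 100 kb, the 9 genes had a median of 1.58 shared distal peaks, near the 1.64 of all genes. Lhx6, Nr2f2 and Npas1, the 3 genes with no promoter peak, each had 1 or more shared distal peaks, a combination found in 13.7% of all genes. The median density of distal peaks was higher for caudal than for medial factors, with of 6.19 against 1.58 peaks per 100 kb in replicate 1 and 5.96 against 1.58 in replicate 2, beside 2.36 and 1.95 over all genes. The ranges overlapped, from 1.48 to 6.67 (medial) and 1.08 to 16.4 (caudal) in replicate 1, and from 0 to 3.08 and 1.08 to 17.3 in replicate 2. Counting only peaks shared by the libraries, the medians were 1.54 and 4.90. The medial minus caudal difference, -4.50 as a mean of the libraries, shrank to -1.15 with flanks of 100 kb, to -2.10 with the shorter peak lists and to -2.97 with the strongest 50% of peaks. Not divided by length, the median number of distal peaks was 3.00 medial and 3.50 caudal in replicate 1, and 1.00 and 3.50 in replicate 2. The highest value in each library came from peaks that the other library lacked: Nr2f2 had 16.4 and 5.48 peaks per 100 kb in replicates 1 and 2, and Sp8 had 4.32 and 17.3.

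**Figure D2:**
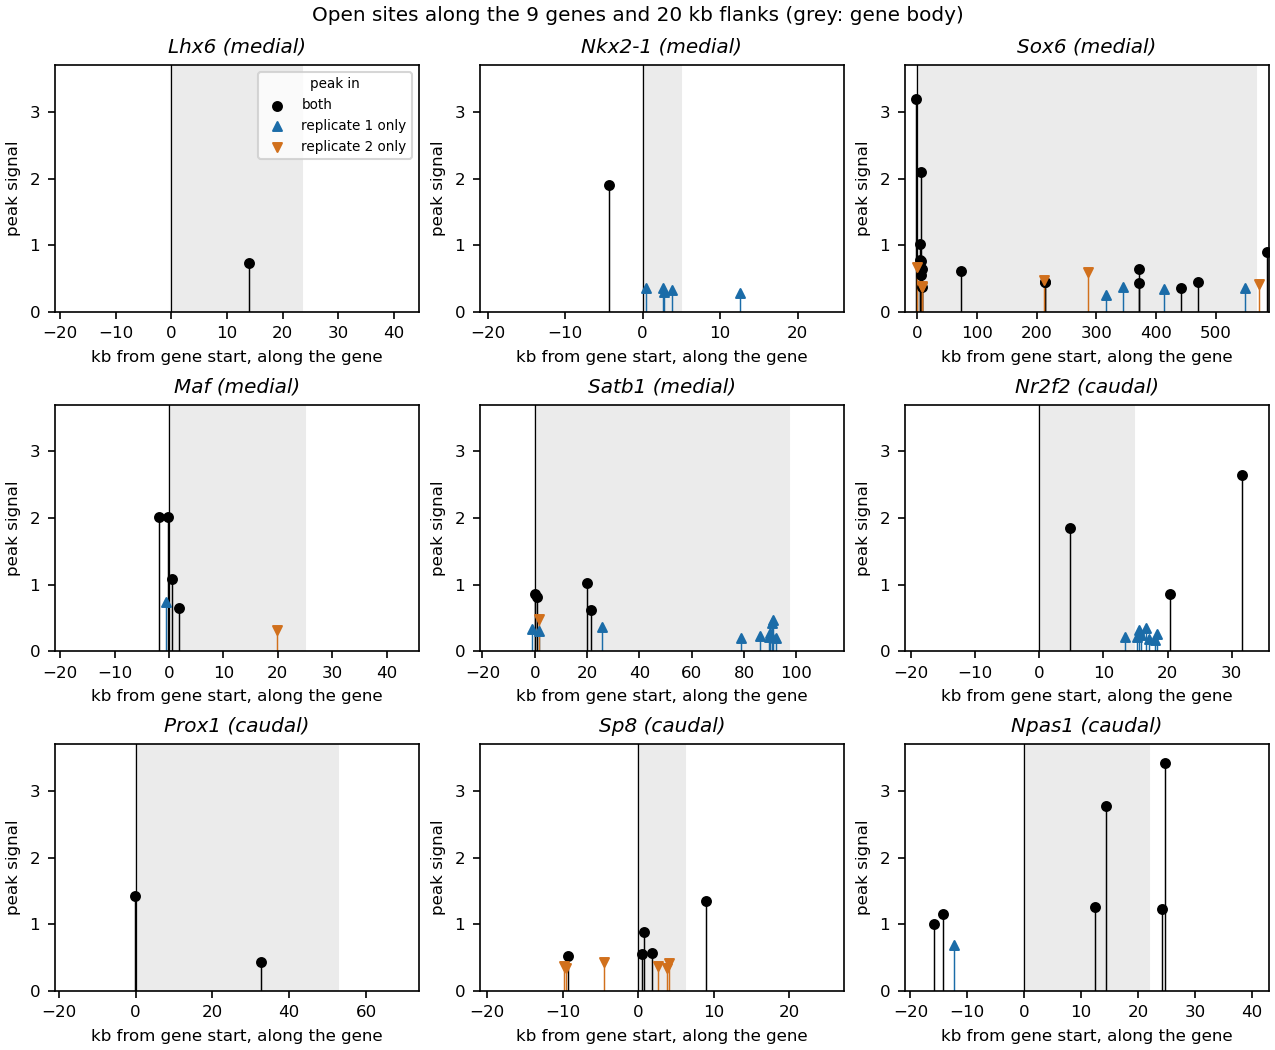
Open sites along each gene and its 20 kb flanks, by distance from the gene start (kb, positive into the gene, grey over the gene body) and peak signal, which is the mean of both libraries where both have a peak (black circles) and the value of the 1 library otherwise (triangles). Lhx6 and Prox1 have black circles only, and the triangles of Nr2f2, Satb1 and Sp8 stand in rows of low signal.

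Lhx6 had 1 site in all, an intronic peak 13.9 kb into the gene that reaches into a coding exon, whose signal was 0.677 in replicate 1 and 0.789 in replicate 2. These signals lay at the 55.5 and 44.4 percentiles of their libraries. Nkx2-1 had 1 shared site, 4353 bp upstream of its start, with 1.70 and 2.11, at the 83.7 and 80.0 percentiles. Its other 5 sites were seen in replicate 1 alone, with signals of 0.286 to 0.365. The shared upstream site was thus far stronger than the promoter peak of the same gene.

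Sox6, the longest of the genes at 568 kb, had 26 sites, of which 16 were shared. Its strongest distal site in both libraries, chr7:115453381-115453620 in the downstream flank, had 0.693 and 1.11. The strongest site of its window, with 2.59 and 3.80, belonged to the start of the neighbouring gene 1110004F10Rik, 1585 bp upstream of Sox6. Maf had 4 shared sites within 2 kb of its start, and the one 1817 bp upstream, with 1.76 and 2.28, was close to its promoter in signal. Satb1 had 5 distal peaks in replicate 1, with signals of 0.193 to 0.370, and 0 in replicate 2, and its 4 shared sites all lay at start sites.

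Nr2f2 had 3 shared sites, and that at chr7:70346201-70346440, with 0.844 and 0.891, lay at the start of Gm44946 and was not distal. The strongest, chr7:70335021-70335200, lay 31.6 kb from the gene start in the downstream flank, with 2.48 and 2.81, at the 89.5 and 85.5 percentiles. Another, chr7:70361521-70362260, lay in an intron 4.82 kb into the gene, with 1.74 and 1.96. It is this site that counts as a promoter once the window is 2000 bp. It joins 2 peaks of each library, which count separately in the number of distal peaks. The 8 further sites of Nr2f2 lay between 13.4 and 18.3 kb from the start, around the 3′ end of the gene, were seen in replicate 1 alone and had signals of 0.172 to 0.349.

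Prox1 had a single distal site, in an intron 32.7 kb from its start (chr1:190137943-190138166), with 0.417 and 0.440. Sp8 had 5 shared sites, the strongest of them 8.97 kb from its start in the downstream flank (chr12:118855161-118855440), with 1.39 and 1.32. Its 6 other sites were seen in replicate 2 alone, with signals of 0.338 to 0.429. Npas1 had 6 shared sites and 1 seen in replicate 1 alone. The strongest distal one, chr7:16463321-16463500, spans an edge of a coding exon 14.3 kb into the gene and had 2.46 and 3.09. An intronic site at chr7:16465201-16465420 had 1.21 and 1.32, and a pair of upstream sites at 14.2 and 15.9 kb had 1.01 and 1.29, and 0.802 and 1.21. The remaining shared sites of Npas1 lay at the start of the neighbouring gene Tmem160, where the signal reached 3.36 and 3.47, so the window of Npas1 holds an open promoter of another gene while its own had no peak.

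**Figure D3:**
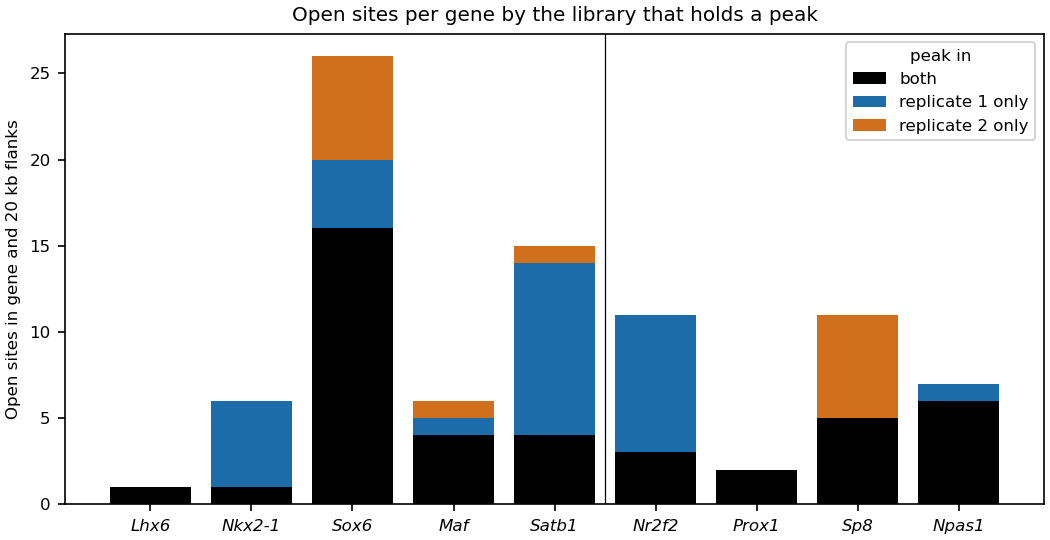
Number of open sites per gene with a peak in both libraries (black), in replicate 1 only (blue) and in replicate 2 only (orange), medial factors left of the line and caudal factors right of it. Satb1 and Nr2f2 hold 10 and 8 sites of replicate 1 only, and Sox6 and Sp8 hold 6 each of replicate 2 only.

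The libraries shared the strong sites of the factor genes and differed in the weak ones. Of the 85 sites, 42 had a peak in both libraries, 29 in replicate 1 alone and 14 in replicate 2 alone. The median signal was 0.307 for sites of replicate 1 alone and 0.400 for those of replicate 2 alone. For shared sites it was 0.897, taking the higher signal of the libraries at each site, that of replicate 2 at 34 of 42. This choice raises the shared median, which is thus not a level within a library. Sites of replicate 1 alone reached at most 0.734 and those of replicate 2 alone 0.677. All stronger sites of each library were shared. The lowest shared value, by the same choice, was 0.383, so the classes overlapped. Of the peaks in the windows of the 9 genes, 63.3% in replicate 1 (50 of 79) and 77.8% in replicate 2 (49 of 63) overlapped a peak of the other library, against 66.5% and 84.6% in the windows of all genes. Of distal peaks, 18 of 36 in replicate 1 and 18 of 27 in replicate 2 (66.7%) were shared, against 59.6% and 80.7%. These shares lay below those of all genes in both libraries, a difference that was not tested, and the sites seen in 1 library gathered at a few genes: Satb1 held 10 and Nr2f2 8 of the 29 of replicate 1, and Sox6 and Sp8 held 6 each of the 14 of replicate 2.

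**Figure D4:**
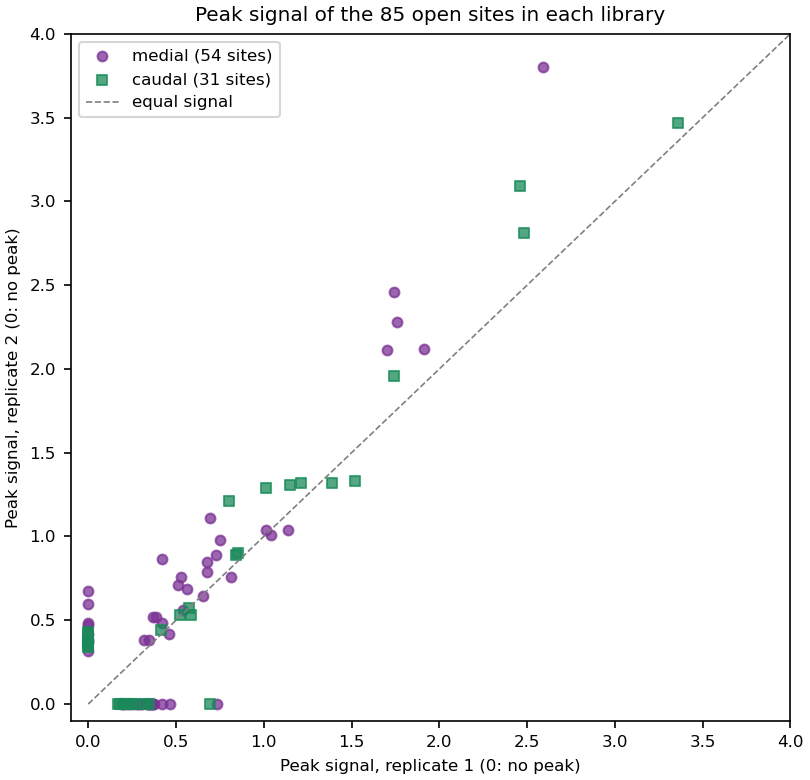
Peak signal of the 85 sites in replicate 1 (x axis) and replicate 2 (y axis), with 0 for no peak, medial sites as circles, caudal sites as squares and equal signal as a dashed line. Sites with a peak in both libraries follow the dashed line or lie above it, and sites of 1 library lie on the axes at signals of 0.734 or lower.

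At the 42 shared sites the log2 ratio of replicate 1 to replicate 2 signal had a median of -0.18, with 34 sites higher in replicate 2. Over the 61026 peaks that the libraries shared 1 to 1, the median was also below 0, at -0.25. The medial sites had a median of -0.29 (n = 26 sites) and the caudal sites -0.08 (n = 16 sites). No difference between the groups was tested.

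Footprints followed the peaks. The windows held 221 footprints in replicate 1 and 111 in replicate 2, of which 86.0% and 86.5% lay in peaks, close to the 84.3% and 87.1% of all genes. Sox6 had the most with 63 and 28, followed in replicate 1 by Satb1 (43 and 20) and Nr2f2 (36 and 14). Maf had 25 and 12, Npas1 25 and 11, Sp8 13 and 18, and Nkx2-1 10 and 3. Lhx6 had 3 and 1, and Prox1 3 and 4. Sp8 and Prox1 were the genes with more footprints in replicate 2, although that list is the shorter one.

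Corrected for window length, footprints had medians of 22.2 and 6.67 per 100 kb at medial factors and 34.2 and 21.6 at caudal factors in replicates 1 and 2, against 20.6 and 13.7 over all genes. The groups overlapped, with ranges of 4.73 to 38.5 (medial) and 3.24 to 65.7 (caudal) in replicate 1, and of 1.58 to 18.5 and 4.32 to 38.9 in replicate 2. The share of footprints overlapping one of the other library was 25.3% in replicate 1 and 45.9% in replicate 2, against 39.1% and 61.9% over all genes. At medial factors it was 20.1% and 40.6%, and at caudal factors 35.1% and 53.2%. As over all genes, these shares lay below those of the peaks.

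The letters of binding motifs were sought, on both strands and with any overlap allowed, in the 200 bp around the centre of the 17 distal sites shared by the libraries, 8 medial and 9 caudal. The homeobox core TAATTA, bound by Dlx and Lhx factors among others, occurred in 1 site, a Sox6 intron site, against 3.43% and 3.29% of all distal peaks of replicates 1 and 2. TNAAGTG, the core of NK2 homeobox sites, occurred in 2 sites, against 9.21% and 9.16%. AGGTCA, the repeated unit of nuclear receptor sites, occurred in 1, against 9.19% and 7.89%, and TGCTGA, the core of Maf sites, in 3, against 20% in each. SOX letters (CCATTGT, in 2.41% and 2.19% of all distal peaks) occurred in none. In the 25 shared sites at starts of any gene, TNAAGTG occurred in 6, against 5.37% and 5.03% of all start-site peaks, and AGGTCA in 6, against 7.44% and 6.78%. Of each of these sets of 6 sites, 3 lay at Sox6, 1 each at Satb1 and Sp8, and 1 at the start of Tmem160 in the Npas1 window. The sets are not separate: the Sp8 site, the Tmem160 site and the Sox6 site chr7:116030761-116031520 held both words. At that Sox6 site the 2 words share letters. TGCTGA occurred in 3 of the 25, against 12.7% and 12.2%, and TAATTA and CCATTGT in none. None of these counts was tested. Among the 17 distal sites, the E-box CAGATG of neuronal helix-loop-helix factors occurred in 5, against 22.4% and 23.3%. CAGCTG occurred in 3, against 20.8% and 20.6%, and GGGCGG, bound by Sp and Klf factors, in 3, against 9.17% and 9.39%. In the 25 start sites GGGCGG occurred in 6, against 41.1% and 43.8%. TTGGCA, of NFI factor sites, also occurred in 6 of the 25, against 9.65% and 9.35%. Apart from a site at the start of Tmem160 in the Npas1 window, all of these lay in the Sox6 window. Those in the Sox6 window included the site at the start of 1110004F10Rik. These counts were not tested either.

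In the printed sequences the capitals of several distal sites hold related letters. The word AGNNGGCGC, the inner part of the motif of the insulator protein CTCF, was chosen after these sequences had been seen, so its count at these sites is a description only. It occurred in 5 of the 17 shared distal sites, at Nkx2-1, Maf and Nr2f2 and at 2 sites of Sox6, against 6.61% and 7.62% of all distal peaks, 9.03% and 8.97% of distal peaks shared by the libraries, and 11.5% and 12.4% of shared distal peaks with a signal at or above the median of distal peaks. It stands at bases 52 to 60 of the Nkx2-1 sequence, 113 to 121 of the distal Maf sequence and 82 to 90 of the Nr2f2 sequence. All 9 of its bases lay under footprints of both libraries at these 3 sites. The word was chosen after the capitals were seen. This cover thus follows in part from the choice and is a description only. At the Sox6 site in the downstream flank, 7 of its 9 bases were covered in replicate 1 and 9 in replicate 2. A match at bases 34 to 42 of the strongest distal Sp8 site, outside the 5, had 0 covered in each library. A looser measure, taken in each library alone, was a footprint over at least 50% of the bases. Over all distal peaks, it held for 75.5% of matches in replicate 1 and 67.6% in replicate 2. The word CAGGGGGC, a narrower form of the same motif in the list searched, occurred in none of the 17 sites. In the 25 shared sites at starts of any gene, AGNNGGCGC occurred in 0, against 10.1% and 10.6% of all start-site peaks.

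Other matches lay mostly outside the capitals. The Maf promoter sequence holds the cyclic AMP response element TGACGTCA at bases 223 to 230, with 8 of its 8 bases under a footprint in replicate 1 and 1 in replicate 2. That word occurs in 1.65% and 1.78% of all start-site peaks. The Maf promoter also holds CAGCTG at bases 88 to 93 and 99 to 104, with no base under a footprint. CAGATG at bases 80 to 85 of the Nkx2-1 sequence lay under a footprint in replicate 2 alone. The Sp8 promoter sequence holds TNAAGTG at bases 219 to 225, under a footprint in replicate 2 alone, and the Lhx6 sequence holds GGGCGG 3 times, none of them covered in both libraries. A match is no evidence that the factor binds, and no factor was measured here.

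Other genes of the interneuron lineage were counted in the same way, and their shares are given without a test against the 5 of 9 factor genes. Of 12 regulators of the ganglionic eminences, 10 were open in both libraries, beside the background of 62.8%. Zeb2, a zinc finger factor of migrating interneurons, had a signal of 2.05 and 2.37, and Gsx2, a progenitor factor, had 0.536 in replicate 1 and no peak in replicate 2. Of 15 other genes of medial interneurons, 14 were open in both libraries, led by the chemokine receptor gene Ackr3 (2.48 and 2.31) and Etv1 (2.41 and 2.33). Sst, which encodes somatostatin, was the exception with no promoter peak in either library. Of 15 other genes of caudal interneurons, 12 were open in both, led by Tcf4 (3.89 and 4.84) and Calb2 (2.03 and 2.62), whereas Vip, which encodes vasoactive intestinal peptide, had no promoter peak.

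The core genes of GABA neurons were open in 4 of 4 cases, beside the same background, with 1.13 and 1.29 at Slc32a1, which loads GABA into vesicles, and 0.938 and 0.857 at Gad1, which makes it. Their distal peaks had medians of 8.15 and 7.59 per 100 kb. In both libraries these lay above the medians of the medial factors (1.58 and 1.58), the caudal factors (6.19 and 5.96) and all genes (2.36 and 1.95). Sst had 3 and 2 distal peaks and Vip 3 and 1, so these genes, like Lhx6, Nr2f2 and Npas1, had distal but no promoter peaks.

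Markers of other cells in the tissue were counted the same way. Promoters were open in both libraries for 10 of 12 genes of excitatory neurons, led by Tle4 (13.5 and 18.8) and Rorb (2.69 and 2.67) with Fezf2 lowest (0.542 and no peak). They were open for 6 of 8 genes of astrocytes, led by Sox9 (3.23 and 3.42) and Gfap (1.80 and 2.45) with Aqp4 lowest (0.406 and no peak). Of 8 genes of the oligodendrocyte lineage 3 were open, led by Olig1 (2.20 and 2.83) and Pdgfra (2.30 and 2.73), and Sox10 had no peak. Of 8 genes of endothelial and mural cells 4 were open, led by Pdgfrb (0.844 and 0.812) and Flt1 (0.755 and 0.699), and Vtn had no peak. Of 8 genes of microglia 2 were open, Tmem119 (0.724 and 0.733) and Cx3cr1 (0.505 and 0.507), and Trem2 had no peak. The open genes of other brain regions were Zbtb20 (8.64 and 10.3) and Wfs1 (5.77 and 6.74), both of which are also used in cortex, and Lmx1b had no peak. The part of these cells in the open sites of Sox6, Satb1, Prox1 and Nr2f2 was not tested.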

How the data were processed

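DNase-seq peaks, footprints and cut rates were taken from the files that the authors deposited for each of 2 libraries of 1 group, in coordinates of mm10 per the file headers and labels. For the aligner and the callers, names, versions and limits were not given in the sources. Peak signal is the authors' deposited value, with no stated scaling. Of the p-value columns, the false discovery rates deposited by the authors were used only through the limit of 0.05 of the cut-rate tables, and the value deposited with each footprint was 0.01 throughout. Lists were called per library. The longer peak list of each library was used and the shorter one (60430 and 47499 peaks) as an alternative.

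Genes, starts and exons came from GENCODE M21, and sequence from GRCm38.p6. Promoter sequences of RefSeq matched 8 of 9 members. A peak or footprint belonged to a window if its centre lay in it, and an overlap of 1 bp or more made a feature shared. Exact letters of 20 motifs and 1 added later were searched. The CpG ratio limit of 0.6 was chosen after the values were seen. The members, gene lists and alternatives were chosen with earlier results of these data known. All 9 members are given in full, and of each other list 3 genes by mean promoter signal (the top 2 and the bottom 1), with others only where the text needs them; 2 genes that this rule names are not reported here. Peaks on overlapping genes were counted for each. Python 3.11.15 with numpy 2.4.6, pandas 2.3.3, pysam 0.24.0 and matplotlib 3.10.9 was used. Interval code was tested on simulated data, with 0 differences from a direct search over 400 intervals. No tests were run, since replicates of 1 group allow no comparison of conditions and genes are not replicates.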

Additional observations from a re-analysis of the deposited data

How the results depend on the processing

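The number of promoters open in both libraries stayed between 4 and 6 of 9 over the alternatives, 5 to 6 with 1 library left out. The medial minus caudal difference in median promoter signal (0.585) was 0.583 to 0.586 with 1 library left out and reversed to -0.128 with windows of 2000 bp and to -0.0961 with the annotated gene start alone (in replicate 2 only), by construction of which peaks count. The caudal median of distal density was above the medial one in all 10 alternatives run, but its size moved. As means of the libraries, in peaks per 100 kb, the medial median, the caudal median and their difference were 1.58, 6.08 and -4.50. They were 1.10, 3.20 and -2.10 with the shorter lists, 0.853, 3.82 and -2.97 with the strongest 50% of peaks, and 1.56, 5.43 and -3.87 with equal peak numbers. They were 2.57, 8.40 and -5.83 without flanks. The libraries disagreed in size there, with a difference of -1.23 in replicate 1 and -10.4 in replicate 2. The 3 values were 2.91, 4.06 and -1.15 with flanks of 100 kb and 1.54, 4.90 and -3.36 with shared peaks only. With peaks over 500 bp from starts they were 4.18, 8.42 and -4.24. With 1 library left out, the medial median was 1.58, the caudal one 5.96 to 6.19 and the difference -4.62 to -4.39. The share of window peaks overlapping a peak of the other library (70.5%) was 48.3% with 50% reciprocal overlap. Footprints per peak (2.08) were 1.51 to 2.65 with 1 library left out. No paired analysis was possible because the result comes from no test and there is 1 group. The cause of the other shifts was not tested. Depth is unknown, so a missing peak in 1 library is not shown to be closed chromatin, and groups of 5 and 4 genes limit what a median can show.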
